A study of Danio rerio with 21 samples.

Results

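Aminoacyl-tRNA synthetases are the enzymes that join each amino acid to its transfer RNA, the step that sets which amino acid a codon is read as. Animal cells keep separate sets of these enzymes for the cytosol and for the mitochondrion. Both sets are encoded in the nucleus, and the mitochondrial enzymes are imported to serve the few proteins that the mitochondrial genome encodes. In the zebrafish data described here, the members are the genes whose symbols follow the naming pattern of these enzymes, and 36 of the 26225 genes listed did so. Symbols that end in 2 marked the 16 mitochondrial genes, and the other 20 were taken as cytosolic.

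The cytosolic genes included aars1, cars1, eprs1, farsa, farsb, gars1, hars, iars1, kars1, lars1b, mars1, nars1, qars1, rars1, sars1, tars1, vars1, wars1 and yars1. The first letter of a symbol is that of the amino acid, so nars1 charges asparagine and wars1 tryptophan. In eprs1 a single protein charges both glutamate and proline, and farsa and farsb encode the paired subunits of the phenylalanine enzyme. The mitochondrial genes included aars2, cars2, ears2, fars2, iars2, lars2, mars2, nars2, pars2, rars2, sars2, tars2, vars2, wars2 and yars2. In vertebrates gars1 and kars1 give both the cytosolic and the mitochondrial enzyme, and mitochondria make glutaminyl-tRNA with an amidotransferase instead of a glutamine synthetase. The division into classes therefore follows gene names, not measured location.

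RNA came from the whole body of wild-type fish of the AB strain, in 7 groups of 3 biological replicates each. Heated fish spent the days from 25 to 35 days post fertilization (dpf) in water of 35 °C. They were sampled at the end of the heat (T35D, 35 dpf) or later, at 45 dpf (T45D) and 60 dpf (T60D), after return to 28 °C. The controls C25D, C35D, C45D and C60D stayed at 28 °C until 25, 35, 45 and 60 dpf, and the study asked how heat during gonad differentiation changed expression. Each T group was compared with the C group of its age, and T libraries are called heated below although T45D and T60D fish were back at 28 °C when sampled.

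The libraries differed in more than heat. Totals of the expected counts lay between 11875455 and 16471171. The share held by the 10 top genes was smallest in T35D-2 (8.84%) and largest in T45D-3 (40.4%), and the scaling factor of edgeR's TMM method was lowest in T45D-3 (0.496) and highest in C35D-2 (1.36). Among markers of single organs, 17 liver genes averaged between -1.38 and 0.70 on the log2 scale of CPM, counts scaled to a common library size, in T45D-3, T60D-2 and all 3 C60D libraries, against 7.27 to 10.28 in the other 16 libraries. These 5 whole-body libraries thus had little liver signal. A second division concerned the ovary: 28 oocyte markers summed to between 16573 and 41522 CPM in T35D-2, T35D-3, T45D-2, T60D-2 and T60D-3, against 67.9 to 3971 CPM in the other 16. None of the 28 was at 0 in any of those 5 libraries. The line between the 5 and the 16 was drawn at 10000 CPM after the values were seen, and no test was made across it.

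All 36 members had enough counts to be tested in every comparison, the lowest being 14 counts in a library, and 3 counts corresponded to between 0.182 and 0.253 CPM. By FPKM, which divides by transcript length and so allows levels of different genes to be compared, the cytosolic genes stood above the mitochondrial ones in most cases. The gene kars1 (lysine) had the highest median, 96.8 FPKM over the 21 libraries, with a range of 63.4 to 148 FPKM. It was followed by sars1 (serine, median 74.1 FPKM) and hars (histidine, 56.2 FPKM), whose ranges overlap with each other. At the low end of the cytosolic set, cars1 (cysteine) had a median of 7.53 FPKM and lars1b (leucine) of 8.21 FPKM. Among mitochondrial genes tars2 (threonine, 7.81 FPKM) and iars2 (isoleucine, 7.34 FPKM) had the highest medians, and nars2 (asparagine, 1.37 FPKM) the lowest. As a fold, the range of nars2 was also the widest of the 36 genes (40.7-fold), from 0.590 FPKM in T35D-1 to 24.0 FPKM in T35D-2, while iars2 stayed between 4.69 and 10.0 FPKM.

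**Figure D1:**
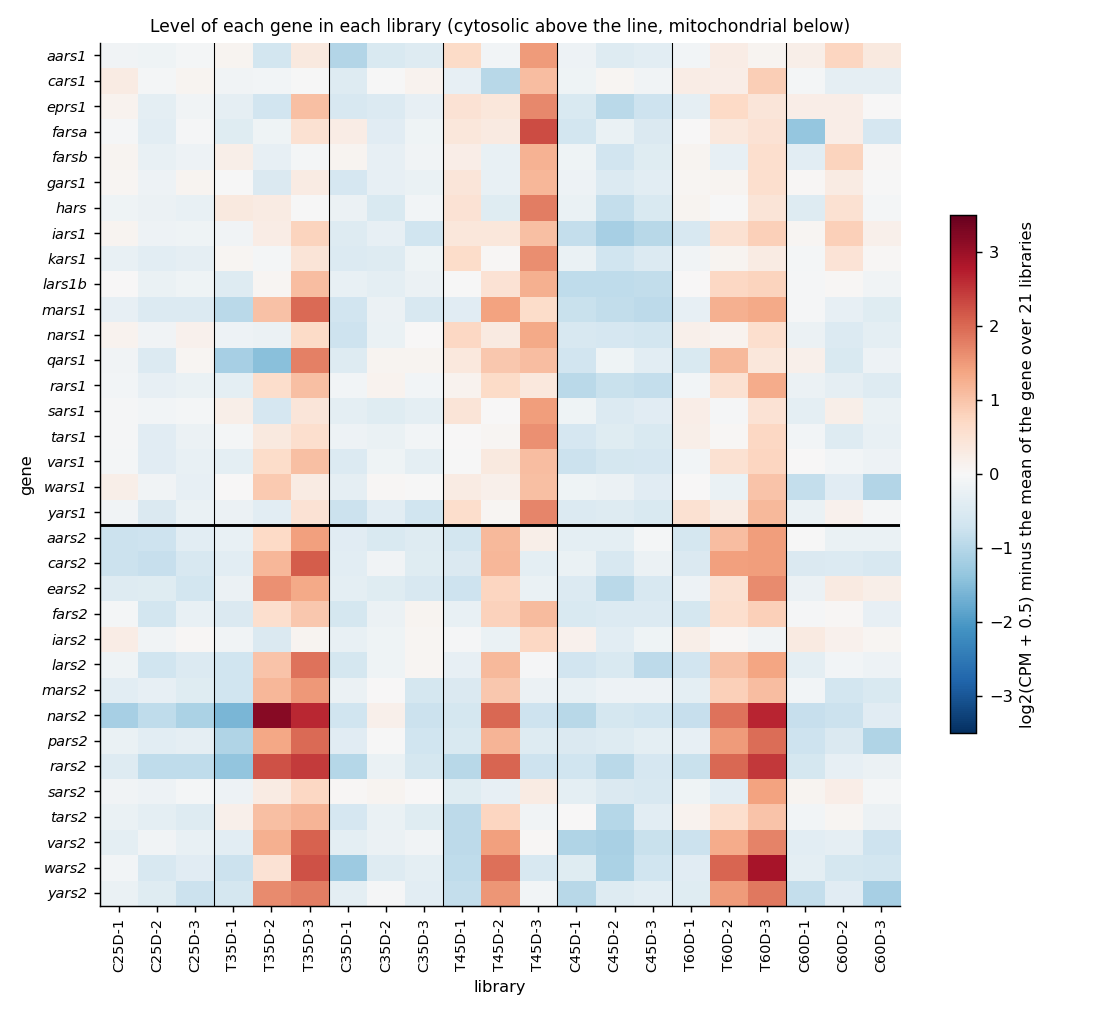
Level of 34 of the 36 genes (vertical axis) in the 21 libraries (horizontal axis), as log2(CPM + 0.5) minus the mean of the gene over the 21 libraries, with red for higher and blue for lower values. Most of the mitochondrial genes, below the line, are red in T35D-2, T35D-3, T45D-2, T60D-2 and T60D-3, while most of the cytosolic genes, above it, are reddest in T45D-3.

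The mitochondrial class split the heated libraries of every age. Its mean was 2.03, 3.81 and 4.33 log2 CPM in the T35D libraries, against 2.14, 2.52 and 2.32 log2 CPM in C35D. In T45D it was 2.02, 3.78 and 2.55 log2 CPM, against 2.16, 2.01 and 2.18 log2 CPM in C45D. The T60D libraries had 2.25, 3.76 and 4.28 log2 CPM, against 2.38, 2.43 and 2.29 log2 CPM in C60D, and C25D had 2.32, 2.15 and 2.197 log2 CPM. High values thus occurred in 5 heated libraries, those with oocyte markers above 10000 CPM, while the other 4 heated libraries (T35D-1, T45D-1, T45D-3 and T60D-1) lay between 2.02 and 2.55 log2 CPM and the 12 control libraries between 2.01 and 2.52. In whole-body RNA a change in the number of cells of a type and a change in the RNA per cell cannot be told apart.

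The same 5 libraries exceeded the other 16 in 12 of the 16 mitochondrial genes taken singly. The exceptions included fars2, iars2 and sars2. For nars2 the lowest of the 5 had 16.1 CPM and the highest of the 16 had 4.54 CPM, in C35D-2. For rars2 (arginine) the corresponding values were 19.8 and 3.87 CPM, and for yars2 (tyrosine) 16.53 and 5.42 CPM. The gap was narrow for ears2 (glutamate), at 7.95 and 6.76 CPM, and for tars2, at 26.9 and 20.3 CPM. Among the 20 cytosolic genes only mars1 (methionine) and rars1 (arginine) divided the libraries in this way, with 64.2 and 49.7 CPM for mars1 and 61.3 and 54.3 CPM for rars1. The share of all genes that divided the libraries in this way was not counted. T35D-2 and T35D-3 were above every control of their age in 9551 and 8717 of 20209 genes. T45D-2 was so in 7918 of 20125 genes, and T60D-2 and T60D-3 in 6727 and 8076 of 18653. The other heated libraries were so in between 5127 (T60D-1) and 6562 genes (T45D-3).

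The mean of the oocyte markers was 8.96 and 8.97 log2 CPM in T35D-2 and T35D-3, 8.55 in T45D-2, and 8.06 and 8.21 in T60D-2 and T60D-3. Of the other 16 libraries the highest was C35D-2 with 5.96 log2 CPM, and C35D-2 also had the highest mitochondrial mean of all control libraries, 2.52 log2 CPM. Defining oocyte genes behaved alike: gdf9, a growth factor secreted by the oocyte, had between 21.5 and 37.2 CPM in the 5 libraries and at most 2.48 CPM in the other 16. The 16 proliferation markers were high in the 5 libraries too, at 6.69 to 7.33 log2 CPM, against 3.06 to 5.33 log2 CPM elsewhere. The part that oocyte or dividing cells have in the level of the mitochondrial genes was not tested.

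**Figure D2:**
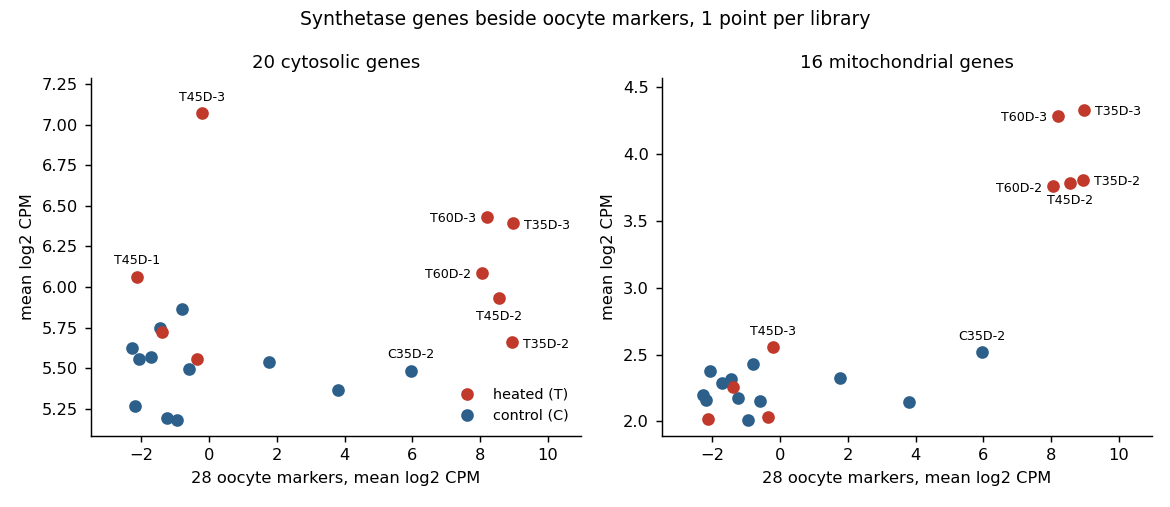
Mean log2 CPM of the 20 cytosolic (left) and 16 mitochondrial genes (right) against the mean log2 CPM of 28 oocyte markers, 1 point per library, with heated libraries in red and controls in blue. In the right panel 5 heated libraries stand at 3.76 to 4.33 log2 CPM and all others at 2.55 or below, whereas in the left panel T45D-3 is highest at 7.07 log2 CPM with oocyte markers at -0.20.

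The cytosolic class followed another course. Its mean was 5.56, 5.66 and 6.39 log2 CPM in T35D, against 5.36, 5.48 and 5.54 log2 CPM in C35D. In T45D it was 6.06, 5.93 and 7.07 log2 CPM, against 5.27, 5.18 and 5.19 log2 CPM in C45D. T60D had 5.73, 6.09 and 6.43 log2 CPM, against 5.56, 5.87 and 5.57 log2 CPM in C60D, and C25D had 5.75, 5.49 and 5.63 log2 CPM. The groups did not overlap at 35 and 45 dpf, narrowly at 35 dpf, and at 60 dpf they did. With library size alone in place of TMM the 35 dpf groups overlapped, at 5.66, 5.61 and 6.23 log2 CPM in T35D, against 5.23, 5.92 and 5.59 log2 CPM in C35D. The 60 dpf groups then did not, at 5.78, 6.08 and 6.13 log2 CPM in T60D, against 5.72, 5.40 and 5.52 log2 CPM in C60D. C45D was the lowest group, and T45D-3 the highest library, in which 17 of the 20 cytosolic genes had their highest CPM.

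T45D-3 was also the library with the lowest TMM factor, liver markers at -0.084, exocrine pancreas markers at -0.75, intestine markers at 0.17 and fast muscle markers at 11.94 log2 CPM, the highest muscle value of the 21. By FPKM, which carries no TMM factor, 6 of the 20 cytosolic genes were highest in T45D-3, as many as in T35D-3. The size of the cytosolic values in T45D-3 thus depends on the scaling, while it moves both classes of a library by nearly the same amount.

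The difference, cytosolic minus mitochondrial mean, was 3.52, 1.86 and 2.06 (log2) in T35D, against 3.22, 2.97 and 3.21 in C35D. It was 4.04, 2.15 and 4.52 in T45D, against 3.11, 3.17 and 3.02 in C45D, and 3.47, 2.33 and 2.15 in T60D, against 3.18, 3.44 and 3.28 in C60D. In C25D it was 3.43, 3.34 and 3.43. All 12 control libraries lay between 2.97 and 3.44, with SDs of 0.05 to 0.14 within groups of 3. The heated groups had SDs of 0.91 (T35D), 1.25 (T45D) and 0.72 (T60D), with libraries on both sides of their controls at each age. The 5 libraries rich in oocyte markers were the only ones below 2.97, and the other 4 heated libraries were all above the controls of their age.

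**Figure D3:**
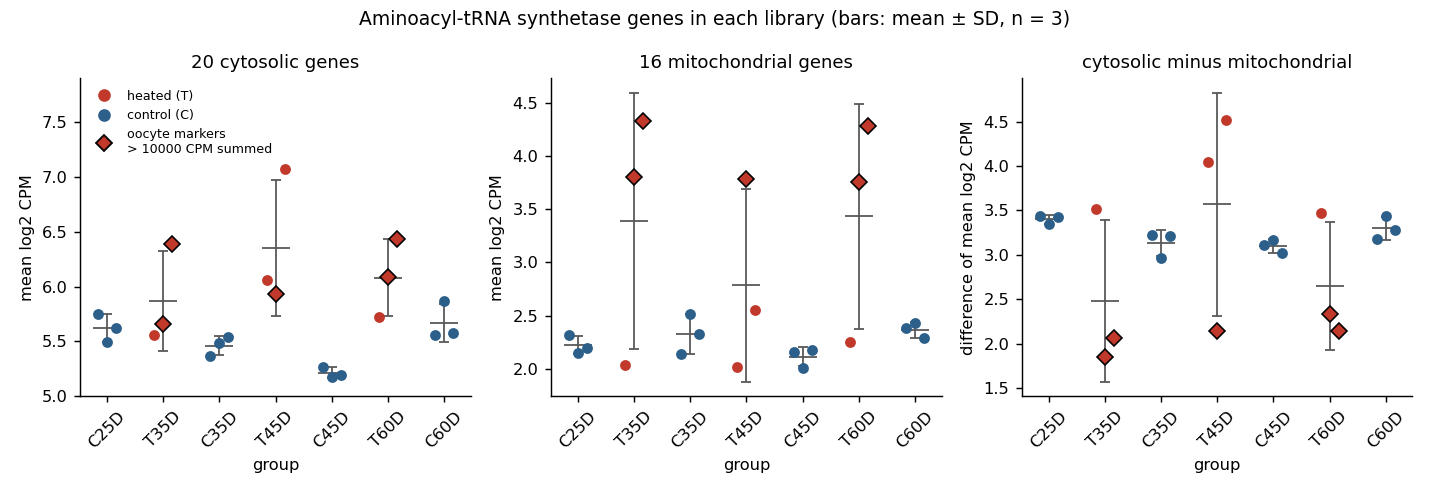
Mean log2 CPM of the 20 cytosolic genes, of the 16 mitochondrial genes, and their difference, in each of the 21 libraries by group. Points are libraries (red heated, blue control), black-edged diamonds are the 5 libraries with oocyte markers above 10000 CPM, and bars give mean ± SD of 3 libraries. The difference spans 1.86 to 4.52 in heated libraries and 2.97 to 3.44 in controls.

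Pairs of enzymes for the same amino acid showed the shift in FPKM. In nars1, the cytosolic asparagine enzyme, the T35D libraries had 23.1, 20.4 and 34.8 FPKM, against 13.5, 28.1 and 25.6 FPKM in C35D. In nars2, its mitochondrial counterpart, they had 0.590, 24.0 and 15.4 FPKM, against 1.3, 3.94 and 1.37 FPKM in C35D. The mitochondrial gene was thus above the cytosolic one in T35D-2, where the ratio was 0.850, and far below it in T45D-3, where the ratio was 46.8. For wars1 and wars2, the tryptophan pair, the ratio of cytosolic to mitochondrial FPKM was lowest in T60D-2 at 0.781 and highest in T45D-3 at 14.7. The cysteine pair, cars1 and cars2, had ratios below 1 in 4 libraries, down to 0.378 in T45D-2.

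Over 16 such pairs, with eprs1 set against both ears2 and pars2 and the mean of farsa and farsb against fars2, the ratio was lowest in one of the 5 oocyte-rich libraries in 14 pairs. All of the 5 were below the other 16 libraries in 8 pairs. The highest ratio was found in T45D-3 in 12 pairs. The isoleucine pair differed: iars1 over iars2 was lowest in C45D-1, at 1.03, and highest in T60D-3, at 4.08. The level of iars1 was 8.25 to 8.57 FPKM in C45D and up to 22.6 FPKM in T35D-3.

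**Figure D4:**
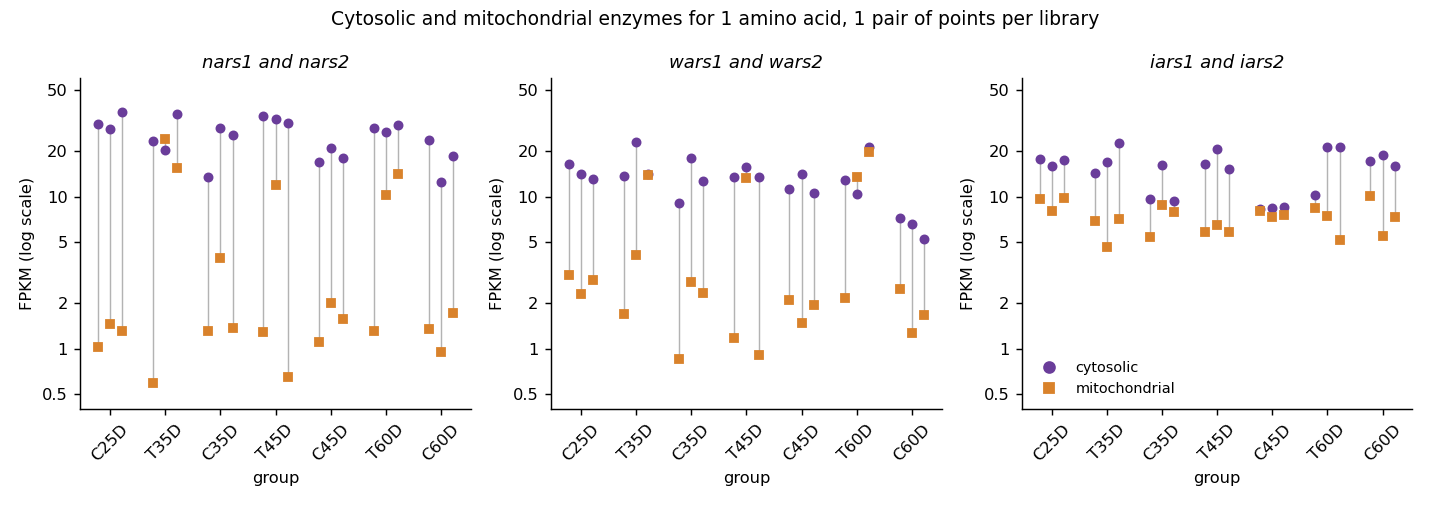
FPKM on a log scale of the cytosolic (circles) and mitochondrial (squares) enzyme for asparagine, tryptophan and isoleucine, 1 joined pair of points per library, by group. For asparagine the mitochondrial gene ranges from 0.590 to 24.0 FPKM, and in T35D-2 it stands above the cytosolic gene, at 24.0 against 20.4 FPKM. For isoleucine the points nearly meet in C45D, where iars1 has 8.25 to 8.57 FPKM.

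At 35 dpf, at the end of the heat, no member passed edgeR's quasi-likelihood test after Benjamini-Hochberg adjustment, nor did any of the 20209 genes tested (0%), with a smallest adjusted p of 0.192 among members. By an unadjusted p of 0.05 or less, 9 of the 16 mitochondrial genes and 1 of the 20 cytosolic genes were higher in T35D, where 15.8% of all genes were. The cytosolic share was thus under that of all genes and the mitochondrial share over it. The median log2 fold change was 1.45 over the mitochondrial genes (range -0.076 to 2.90) and 0.50 over the cytosolic ones (up to 1.57), against 0.27 over all genes. The log2 fold change was above 0 in 15 of 16 mitochondrial and 18 of 20 cytosolic genes, where 59.0% of all genes were. The 3 T35D libraries were all above the 3 controls in 3 mitochondrial (tars2, ears2 and aars2) and 4 cytosolic genes, where 10.0% of all genes were. DESeq2 called 1 member, nars2 (adjusted p = 0.0486), and 1671 genes in all.

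The member with the smallest p at 35 dpf was tars2, with 20.3, 37.9 and 41.5 CPM in T35D, against 11.6, 15.1 and 13.2 CPM in C35D. All heated libraries were above the controls, by 1.302 ± 0.40 on the log2 scale (SE here and below, adjusted p = 0.192). For ears2 the T35D libraries had 4.64, 17.3 and 14.3 CPM, against 4.17, 3.92 and 3.48 CPM in C35D (1.63 ± 0.55, adjusted p = 0.192). T35D-1 was barely above its controls here. The 2 genes with the largest fold changes, nars2 (2.90 ± 1.09) and rars2 (2.56 ± 0.93), overlapped with the controls because T35D-1 was lower than all of them, at 0.970 CPM for nars2 and 1.45 CPM for rars2.

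In mars1, which charges both initiator and elongator methionine tRNA, T35D had 16.1, 64.2 and 124 CPM, against 19.6, 27.0 and 20.97 CPM in C35D. T35D-1 was below the controls and the other heated libraries above them, and the log2 fold change was 1.57 ± 0.67 (adjusted p = 0.207). For iars1 the T35D libraries had 51.3, 67.7 and 96.5 CPM, against 40.6, 45.7 and 34.2 CPM in C35D, without overlap (0.82 ± 0.38, adjusted p = 0.227). The valine enzyme gene vars1 had 28.4, 56.4 and 75.3 CPM in T35D, against 25.8, 32.5 and 28.7 CPM in C35D (0.86 ± 0.43, adjusted p = 0.250). The tyrosine gene yars1 had 40.2, 35.6 and 66.4 CPM in T35D, against 27.1, 35.9 and 28.4 CPM in C35D (0.62 ± 0.38, adjusted p = 0.329). In both genes 1 heated library lay among the controls.

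The libraries T35D-2 and T35D-3 had the highest mitochondrial means at this age, and leaving both out was chosen after their values were seen. With T35D-1 as the only heated library, assumed to vary as the controls do, the median log2 fold change was -0.29 over the mitochondrial and 0.12 over the cytosolic genes, and 0 members were higher by the unadjusted p. Without T35D-1, 12 mitochondrial and 2 cytosolic genes passed the adjusted threshold, where 6642 of 20927 genes tested did. In that fit 3 cytosolic genes were higher by the unadjusted p, where 5198 of all genes were. Both cytosolic shares were under those of all genes, and the mitochondrial share was over. The unadjusted mitochondrial count of 9 became 1 without T35D-2, 2 without T35D-3, 0 without C35D-1 or C35D-3, and 3 without C35D-2, while the cytosolic count of 1 became 0 without any of these 5. The replicate block reduced the mitochondrial count to 1.

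At 45 dpf, after the return to 28 °C, most of the higher genes were cytosolic. Again 0% of 20125 genes and 0 members passed after adjustment, and the lowest adjusted p of a member was 0.213. By the unadjusted p, 16 of 20 cytosolic and 3 of 16 mitochondrial genes were higher in T45D, where 5.27% of all genes were, and none was lower. The log2 fold change was above 0 in all 20 cytosolic genes, with a median of 1.34 (0.34 to 1.83), and in all 16 mitochondrial genes, with a median of 0.86 (up to 1.84). Of all genes 55.0% were above 0, and the median over all genes was 0.12. By CPM the T45D libraries were all above C45D in 16 cytosolic and 2 mitochondrial genes, where 6.88% of all genes were. DESeq2 called 6 cytosolic members (iars1, rars1, nars1, lars1b, eprs1 and qars1) and 677 genes in all.

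The smallest p belonged to iars1, with 74.0, 73.6 and 117 CPM in T45D, against 31.1, 24.7 and 28.0 CPM in C45D. The lowest heated library had more than the highest control by a wide margin, and the log2 fold change was 1.72 ± 0.33 (adjusted p = 0.213 by edgeR, 0.00470 by DESeq2). By FPKM iars1 had 16.3, 20.7 and 15.2 in T45D, against 8.25, 8.48 and 8.57 in C45D, so that the groups were separate without TMM scaling too. For rars1 the T45D libraries had 45.5, 67.3 and 54.3 CPM, against 21.5, 24.2 and 23.4 CPM in C45D (1.33 ± 0.29, adjusted p = 0.213). In FPKM the rars1 values came closer, with 18.75, 35.4 and 13.15 in T45D, against 10.7, 15.55 and 13.35 in C45D, where T45D-3 lay among the controls.

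For lars1b, T45D had 23.9, 34.2 and 57.4 CPM, against 12.8 CPM in each C45D library, a log2 fold change of 1.65 ± 0.39 (adjusted p = 0.213). The C45D libraries of lars1b hardly differed from each other. In nars1, T45D had 93.9, 70.4 and 143 CPM, against 38.7, 37.3 and 36.2 CPM in C45D, likewise without overlap (1.52 ± 0.37, adjusted p = 0.213). The largest log2 fold changes of the class were those of farsa (1.83 ± 0.62) and eprs1 (1.79 ± 0.47). The smallest was that of cars1 (0.34 ± 0.56), which had 16.9, 10.3 and 44.7 CPM in T45D, against 18.5, 21.8 and 18.9 CPM in C45D, with T45D-1 and T45D-2 below all controls.

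The mitochondrial genes with the smallest p at 45 dpf were fars2 and lars2. In fars2 (phenylalanine) T45D had 2.42, 5.62 and 7.03 CPM, against 1.90, 2.01 and 2.02 CPM in C45D (1.40 ± 0.49, adjusted p = 0.266). In lars2 (leucine) T45D had 3.77, 10.9 and 4.59 CPM, against 2.77, 3.07 and 2.28 CPM in C45D (1.305 ± 0.51, adjusted p = 0.300). By CPM both genes were separate between the groups. In lars2 the oocyte-rich T45D-2 was the highest library by CPM, whereas in fars2 it was T45D-3. By FPKM, without TMM scaling, the groups overlapped in both genes, and T45D-2 was the highest library in both. In fars2 T45D had 1.31, 3.86 and 2.22 FPKM, against 1.23, 1.69 and 1.51 FPKM in C45D. In lars2 T45D had 1.25, 4.62 and 0.90 FPKM, against 1.11, 1.59 and 1.05 FPKM in C45D.

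Some cytosolic enzymes of animals sit together in the multisynthetase complex, held by the scaffold proteins AIMP1, AIMP2 and EEF1E1, and 8 of the cytosolic genes belong to it, among them eprs1, iars1, kars1, lars1b, mars1, qars1 and rars1. All 8 were higher in T45D by the unadjusted p, where 5.27% of all genes were. By CPM all 8 had T45D libraries above the C45D libraries, where 6.88% of all genes did, and their median log2 fold change was 1.55. By FPKM, without TMM scaling, rars1, qars1 and mars1 overlapped with C45D, and the others of the 8 did not. In qars1 T45D had 14.8, 28.4 and 14.5 FPKM, against 8.50, 16.1 and 12.1 FPKM in C45D. In mars1 T45D had 6.58, 30.1 and 8.14 FPKM, against 6.08, 7.40 and 6.36 FPKM in C45D. Of the other 12 cytosolic genes 8 were higher, with a median of 1.25. This division was made after the values were seen and was not tested. At 35 dpf the medians were 0.58 for the 8 and 0.45 for the other 12, and at 60 dpf 0.32 and 0.50.

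T45D-1, with oocyte markers at -2.12 log2 CPM and liver markers at 10.18 log2 CPM, was above all 3 controls in 19 of 20 cytosolic and 3 of 16 mitochondrial genes, where 29.5% of all genes were. T45D-2 was above them in 16 cytosolic and 15 mitochondrial genes (39.3% of all genes), and T45D-3 in all 20 cytosolic and 8 mitochondrial genes (32.6%). These counts are by CPM and depend on the scaling. By FPKM T45D-1 was not above all 3 controls in cars1, farsa, mars1, qars1, tars1, vars1 and wars1. T45D-3 was not so by FPKM in cars1, qars1, rars1 and wars1, and among mitochondrial genes it was above them in fars2 only. With T45D-1 as the only heated library, the median log2 fold change was 0.96 over the cytosolic genes, 19 of 20 above 0, and -0.071 over the mitochondrial ones. Of all genes 45.3% were above 0 in that fit. In that fit the lone library is assumed to vary as the controls do, and 10 cytosolic genes and 2202 genes in all passed the adjusted threshold. Eye markers averaged -1.05, 4.84 and -2.43 log2 CPM in T45D, against 6.53, 5.70 and 6.15 log2 CPM in C45D. Brain and synapse markers averaged 1.61, 3.53 and 1.26 log2 CPM in T45D, against 5.18, 4.60 and 4.91 log2 CPM in C45D. Both lists were thus lower in all 3 heated libraries, T45D-1 included, and their part in the result was not tested.

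Scaling and controls bear on the size. With library size alone in place of TMM, the median of all genes at 45 dpf moved to -0.43, the cytosolic median to 0.69 with 19 of 20 genes above 0, and the cytosolic count by the unadjusted p to 6. That count was 9, 8 and 8 without C45D-1, C45D-2 or C45D-3, and 9 with the replicate block. Without T45D-2, 7 cytosolic genes and 1667 genes in all passed the adjusted threshold. The mitochondrial count of 3 became 9 without T45D-1, 5 without T45D-3 and 0 without any of the controls, and its median fell to 0.18 without T45D-2.

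**Figure D5:**
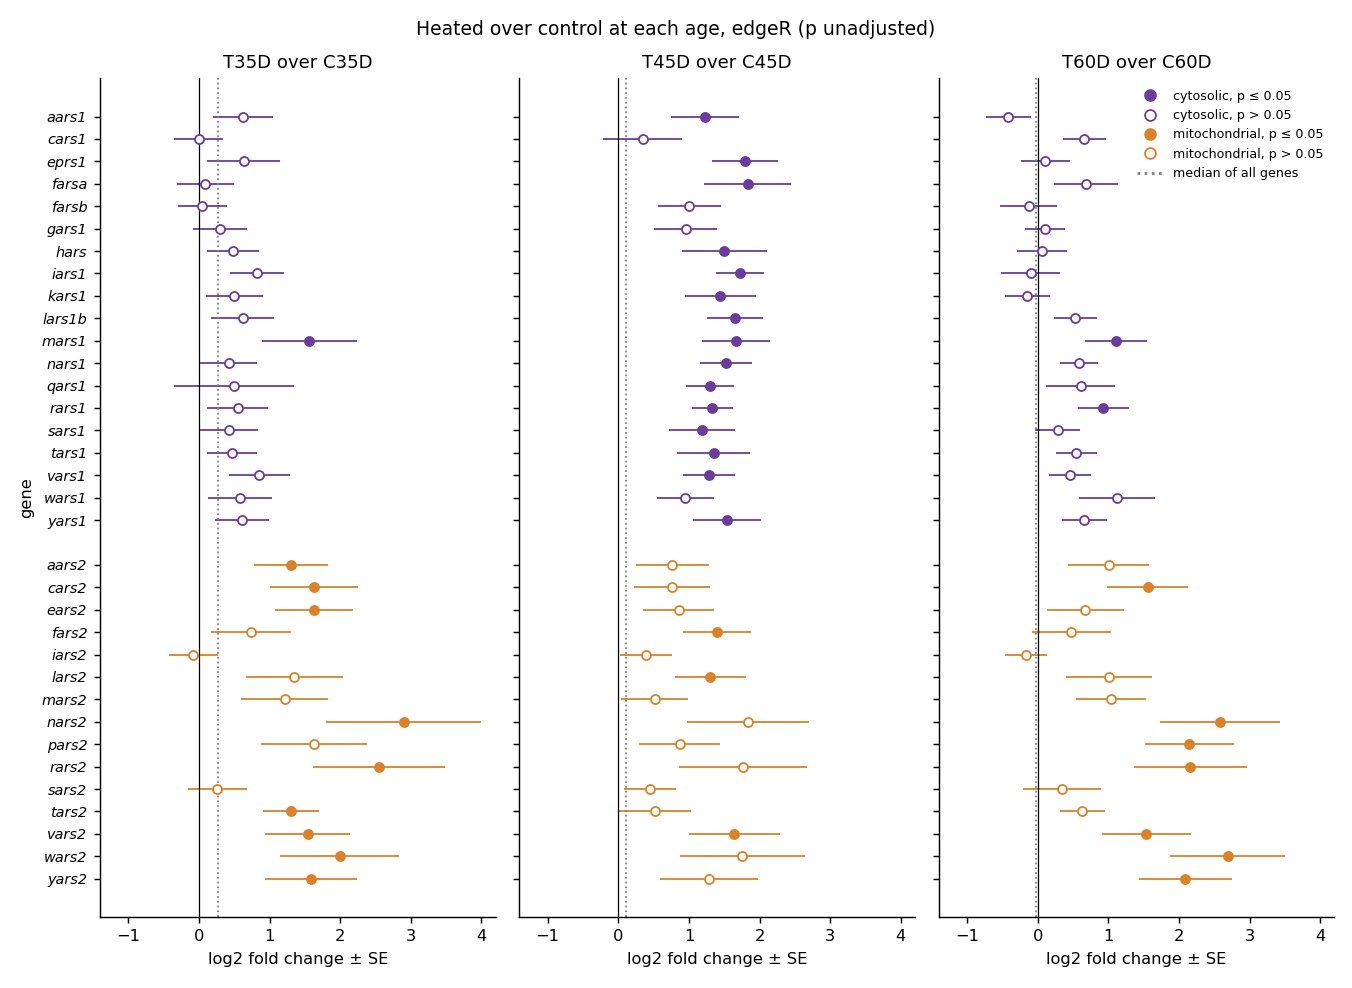
Log2 fold change ± SE (horizontal axis) of 34 of the 36 genes (vertical axis) at 35, 45 and 60 dpf, heated over control, from edgeR. Filled points have an unadjusted p of 0.05 or less, and the dotted line is the median of all genes tested. Filled points are mostly mitochondrial (orange) at 35 and 60 dpf, 9 and 7 of the 15 shown, and mostly cytosolic (purple) at 45 dpf, 15 of the 19 shown, and no gene passed the adjusted threshold.

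At 60 dpf the mitochondrial genes again held most of the higher values. None of 18653 genes (0%) passed the adjusted threshold by edgeR, and the smallest adjusted p among members was 0.146. By the unadjusted p, 7 of 16 mitochondrial and 2 of 20 cytosolic genes (rars1 and mars1) were higher in T60D, where 16.1% of all genes were. The median log2 fold change was 1.02 over the mitochondrial genes (-0.17 to 2.69) and 0.49 over the cytosolic ones (-0.42 to 1.12), against -0.025 over all genes. The T60D libraries were all above C60D in 2 mitochondrial (pars2 and tars2) and 6 cytosolic genes (rars1, nars1, cars1, yars1, wars1 and tars1), where 11.8% of all genes were. DESeq2 called 4 mitochondrial members (wars2, pars2, nars2 and yars2) and 3176 genes in all.

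For pars2, the mitochondrial proline enzyme, T60D had 4.30, 15.8 and 21.9 CPM, against 3.00, 3.57 and 2.29 CPM in C60D. The groups were separate, with T60D-1 close to the controls, and the log2 fold change was 2.15 ± 0.63 (adjusted p = 0.146 by edgeR, 0.0207 by DESeq2). For wars2, T60D had 2.33, 14.8 and 27.0 CPM, against 2.44, 1.93 and 1.90 CPM in C60D, so that T60D-1 lay among the controls (2.69 ± 0.81, adjusted p = 0.148). In rars1, T60D had 39.2, 61.3 and 103 CPM, against 36.3, 33.8 and 30.6 CPM in C60D (0.93 ± 0.36, adjusted p = 0.179). In mars1, T60D had 25.6, 75.6 and 79.4 CPM, against 30.3, 25.6 and 23.3 CPM in C60D, with T60D-1 among the controls (1.11 ± 0.44, adjusted p = 0.180).

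The gene nars1 had 64.0, 62.2 and 86.0 CPM in T60D, against 49.4, 40.5 and 45.0 CPM in C60D, without overlap (0.59 ± 0.27, adjusted p = 0.214). For cars1 the T60D libraries had 24.9, 24.7 and 38.0 CPM, against 19.7, 16.504 and 16.6 CPM in C60D, also without overlap (0.66 ± 0.30, adjusted p = 0.215). Of the cytosolic genes that led at 45 dpf, iars1 had a log2 fold change of -0.10 ± 0.42 at 60 dpf, with 38.0, 81.6 and 100 CPM in T60D, against 58.6, 100 and 63.1 CPM in C60D. The lowest of the class was aars1 (alanine), at -0.42 ± 0.32.

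The libraries T60D-2 and T60D-3 had the highest mitochondrial means at 60 dpf, and leaving both out was again chosen after their values were seen. With T60D-1 as the only heated library, assumed to vary as the controls do, the medians were -0.078 over the mitochondrial and 0.10 over the cytosolic genes, with 0 and 1 genes higher by the unadjusted p and 518 genes in all past the adjusted threshold. Without T60D-1, 11 mitochondrial and 3 cytosolic genes (lars1b, mars1 and rars1) passed the adjusted threshold, where 6293 of 19592 genes tested did. In that fit 11 and 6 were higher by the unadjusted p, where 4953 of all genes were. The cytosolic share past the adjusted threshold was under that of all genes, and the mitochondrial share was over it. The mitochondrial count of 7 became 4 without T60D-2, 3 without T60D-3, C60D-1 or C60D-2, and 1 without C60D-3. The cytosolic count of 2 became 4 without T60D-2, 1 without C60D-2, and 0 without T60D-3, C60D-1 or C60D-3, and 426 genes in all passed the adjusted threshold without T60D-2. The block gave 2 mitochondrial and 0 cytosolic genes. In 1 fit of all 21 libraries pars2 and yars2 passed the adjusted threshold, where 3163 of 22391 genes tested did. The mitochondrial share was thus near that of all genes. Liver markers were near absent in all 3 C60D libraries and in T60D-2, and at 10.28 and 9.47 log2 CPM in T60D-1 and T60D-3, and their part in the result was not tested.

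The difference of the heat effects between ages was tested in 1 edgeR fit of 18 libraries, and no member passed after adjustment. From 35 to 45 dpf the effect was larger in all 20 cytosolic genes, with a median difference of 1.09 (log2), and in 49.1% of all genes. By an unadjusted p of 0.05 or less, 6 of the 20 (nars1, farsa, lars1b, rars1 and iars1 among them) were higher, where 3.40% of all genes were. The smallest adjusted p was 0.607. Over the mitochondrial genes the median difference was -0.28, with 11 of 16 below 0 and 0 by the unadjusted p. From 45 to 60 dpf the effect was smaller in 18 of 20 cytosolic genes, with a median of -0.88, while it was larger in 51.7% of all genes. By the unadjusted p, 5 cytosolic genes (iars1, kars1, aars1 and eprs1 among them) were lower, where 5.05% of all genes were. The largest of these differences was that of iars1, at -1.77 ± 0.51 (adjusted p = 0.118), and the mitochondrial median was 0.31. Between 35 and 60 dpf 0 members passed the unadjusted p. Without T45D-3 the counts of 6 and 5 became 0 and 1, without T45D-2 they became 14 and 13, and with library size alone both were 0. The count of 6 was 9 without T35D-3 and between 1 and 3 without T35D-2, T45D-1, C35D-1 or any C45D or C60D library, and that of 5 was 3 without T60D-1, C45D-2 or C60D-2.

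Across the 7 groups, 10 of 20 cytosolic and 9 of 16 mitochondrial genes differed at an adjusted p of 0.05 or less by edgeR, where 31.5% of all genes tested did (7048 of 22391). DESeq2 called 16 and 11, but it also called more of all genes, 12582 of 26164. The smallest adjusted p values were those of yars1 (0.0250), nars1 (0.0277), iars1 (0.0278), rars1 (0.0293) and nars2 (0.0301). At the other end iars2 (0.733) and cars1 (0.607) did not pass the threshold. The cytosolic count was 17 without T45D-2, where 9821 of 22785 genes tested passed. It was 6 or fewer without T35D-2, T60D-2, T60D-3, C60D-1, C60D-3 or any C25D, C35D or C45D library. The mitochondrial count was 13 without T60D-1, where 12217 of 22785 genes passed. It was 2 or fewer without T35D-2, T35D-3, T60D-2, T60D-3 or any control library. In the fits with these low counts between 1074 and 6200 genes passed, against 7048 with all libraries. With library size alone both counts were 0, where 2718 of 22391 genes passed.

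Over the 4 control ages 12 cytosolic and 3 mitochondrial genes (vars2, sars2 and ears2) passed the adjusted threshold by edgeR, where 50.0% of all genes did, so that the cytosolic share was near the background and the mitochondrial one under it. The smallest p was that of lars1b (adjusted p = 0.000588), with 24.2, 20.3 and 21.4 CPM in C25D, 20.1, 18.9 and 20.7 CPM in C35D, 12.8 CPM in each C45D library, and 23.2, 24.5 and 21.97 CPM in C60D. In rars1 (adjusted p = 0.000748) the control groups averaged 36.4, 41.4, 23.1 and 33.6 CPM at 25, 35, 45 and 60 dpf. The mean was lowest in C45D, among the 4 control ages, in 14 of 20 cytosolic and 9 of 16 mitochondrial genes. The share of all genes that were lowest in C45D was not counted. The T45D libraries were thus set against the controls in which most of the synthetase genes were lowest. By CPM the iars1 values of T45D (74.0, 73.6 and 117) were also above those of C25D (59.8, 49.0 and 50.4). They overlapped with those of C60D (58.6, 100 and 63.1 CPM). By FPKM iars1 in T45D (16.3, 20.7 and 15.2) overlapped with C25D (17.7, 15.9 and 17.3) as well. The cytosolic count was 6 without C45D-3 and 7 without C60D-3, and the mitochondrial count 0 without C45D-2 and 1 without C45D-3. Of all genes, 9111 of 22169 passed without C45D-3, 8193 of 22115 without C60D-3 and 9744 of 22091 without C45D-2.

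Other genes of the same pathway were counted from 6 lists, and none of their genes passed the adjusted threshold in any heat comparison. In the multisynthetase scaffold (4 genes), at 45 dpf all 4 log2 fold changes were above 0, with a median of 1.29, and aimp1a (1.36 ± 0.48) and aimp2 (1.22 ± 0.43) passed the unadjusted p. In aimp1a T45D had 85.3, 58.2 and 168 CPM, against 54.0, 32.2 and 41.2 CPM in C45D. The scaffold median was 0.47 at 35 dpf and -0.061 at 60 dpf, and none of the 4 passed the unadjusted p at those ages.

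Genes of mitochondrial translation (15 matched) had medians of 0.74, 0.76 and 0.30 at 35, 45 and 60 dpf, and 3, 1 and 4 of 15 were higher by the unadjusted p, where 15.8%, 5.27% and 16.1% of all genes were. The gene qrsl1, a subunit of the amidotransferase that makes mitochondrial glutaminyl-tRNA, was among them at every age (1.497 ± 0.60, 1.58 ± 0.55 and 1.67 ± 0.61). It had 5.47, 16.03 and 29.3 CPM in T35D, against 5.43, 6.66 and 5.51 CPM in C35D, so that T35D-1 lay among the controls and the other heated libraries above them. The others were mtfmt, which formylates the initiator methionyl-tRNA, and mtrf1l, a release factor, at 35 and 60 dpf, and tsfm, an elongation factor, at 60 dpf (1.63 ± 0.44).

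Among 9 genes that act on tRNA or resemble the synthetases, dtd1, which removes D-amino acids from tRNA, was higher by the unadjusted p at all 3 ages (1.08 ± 0.41, 1.91 ± 0.46 and 1.43 ± 0.43). Its values were 18.2, 26.3 and 51.8 CPM in T45D, against 10.95, 8.27 and 7.56 CPM in C45D. The genes dtd2 and pusl1 were higher by the unadjusted p at 35 dpf. The gene tars3, a further threonyl-tRNA synthetase whose symbol lies outside the naming rule, was lower at 60 dpf (-1.87 ± 0.78), with 25.4, 30.3 and 4.60 CPM in T60D, against 38.6, 119 and 63.1 CPM in C60D.

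The eIF2 kinases lower the rate of initiation under stress, GCN2 among them on sensing uncharged tRNA, and eIF2B is the nucleotide exchange factor of eIF2. Their list had 2, 7 and 2 genes higher by the unadjusted p of 13, 13 and 14 tested at 35, 45 and 60 dpf, where 15.8%, 5.27% and 16.1% of all genes were, with medians of 0.80, 1.11 and 0.20. At 45 dpf the first of these were eif2b5 (1.11 ± 0.28), eif2b2 (1.25 ± 0.34), gcn1 (1.13 ± 0.33) and eif2b1 (1.72 ± 0.52). The targets of ATF4, the factor that raises synthetase genes under amino acid shortage in mammals, had values in both directions. Of 40, 40 and 39 tested, 6, 8 and 6 were higher and 5, 2 and 2 lower by the unadjusted p, with medians of 0.14, 0.58 and 0.51. Of all genes, 15.8%, 5.27% and 16.1% were higher and 8.33%, 10.5% and 9.53% lower. The log2 fold change was above 0 in 23, 32 and 23 of the targets, where 59.0%, 55.0% and 49.2% of all genes were. The proline enzyme gene pycr1b was higher at 45 and 60 dpf (2.06 ± 0.39 and 1.93 ± 0.58). The amino acid transporter gene slc7a5 was among the 2 lower targets at 45 dpf (-2.47 ± 0.46), where 8 were higher. The level of slc7a5 was low, at 0.448, 0.638 and 0.270 CPM in T45D, against 2.70, 2.66 and 2.87 CPM in C45D. The 5 lower targets at 35 dpf, where 6 were higher, included mthfd1l (-1.83 ± 0.43), cbsa (-1.50 ± 0.40) and cth (-1.44 ± 0.42). These are enzymes of folate and sulfur amino acid metabolism. In the elongation factor 1 complex, eef1a1a was lower at 45 dpf (-2.47 ± 0.39) and higher at 60 dpf (4.00 ± 1.25), and its paralog eef1a1b was lower at 45 dpf (-2.15 ± 0.44). At 60 dpf eef1a1a had 57.6, 1.26 and 15.05 CPM in T60D, against 1.26, 1.45 and 1.90 CPM in C60D, so that T60D-2 was not above the controls. Brain and synapse markers averaged 5.19, 0.046 and 2.67 log2 CPM in T60D, against 0.85, 1.97 and 1.28 log2 CPM in C60D, and their part in the result was not tested.

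The 10 genes outside the set whose log2 CPM was most like the cytosolic mean over the 21 libraries were tsr1, tcp1, pa2g4b, nap1l4a, rrp12, cct7, eif2b4, cct3, psat1 and dap3, out of 22355 compared. Pearson's r ran from 0.959 for tsr1, a ribosome assembly factor, to 0.888 for dap3. Without T45D-3 and T60D-3, the 2 libraries farthest from the median, r was 0.931 for tsr1 and 0.793 for dap3. Beside the mitochondrial mean, genes outside the set reached higher values, with 0.991 for taf9, 0.990 for znhit6 and 0.988 for cwf19l1. The course of the mitochondrial mean was thus shared closely by genes that are not synthetases. The libraries share their scaling factors, which move all genes of a library together, so these values describe likeness only.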

How the data were processed

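RNA from 21 whole-fish zebrafish libraries was sequenced by the authors, single-end. The deposited values are RSEM expected counts and FPKM per gene, both made by the authors: reads were filtered with SOAPnuke, aligned to the genome with HISAT2 2.0.4 and to the coding genes with Bowtie2 2.2.5, and estimated with RSEM 1.2.12. Expected counts can be fractional (10.6% of values were not whole) and were rounded. The 24087 of 26225 gene IDs with a symbol were named from a gene table.

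Counts were tested with edgeR 4.0.16 (filterByExpr, TMM, quasi-likelihood test) and Benjamini-Hochberg adjustment over all genes tested, at 0.05. Each heat comparison was fitted on its own 6 libraries, the 7 groups on all 21, the 4 control ages on 12 and differences between ages on 18. CPM used the TMM factors of all 21 libraries, log2 CPM a prior count of 0.5, and FPKM served to compare levels between genes and, for some genes, libraries without TMM scaling. DESeq2 1.42.0, other scalings, no filter, a replicate block, 1 fit of all libraries and leaving out libraries were alternatives. Leaving out both oocyte-rich libraries of an age, or T45D-2 and T45D-3, was chosen after seeing the data. Scripts were tested on simulated counts.

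Values of 2 members and of 1 pathway gene are not reported here, though counts and means over the members include them. Pathway genes were named from those with an unadjusted p of 0.05 or less, at most 4 a list and comparison. Not every such gene is named. The members and lists were chosen with earlier results of these data known. The study's methods give a range of fish collected at a time point but do not state clearly how many made up a library, and p-values measure the spread between libraries. Sequences and coordinates are not used here.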

Additional observations from a re-analysis of the deposited data

How the results depend on the processing

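With 3 libraries a group, single libraries decide most counts, and no member passed the adjusted threshold in any heat comparison by edgeR. Genes with few counts, such as nars2, limit precision. Of the results that answer a comparison, 484 values stayed near the main one and 183 moved. The cause of the moves was not tested.

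With DESeq2, 1671 (35 dpf), 677 (45 dpf), 3176 (60 dpf) and 12582 genes (7 groups) passed the adjusted threshold, with 6 mitochondrial genes higher by the unadjusted p at 45 dpf, 1 cytosolic gene at 60 dpf, and 16 cytosolic genes called over the 7 groups. DESeq2's size factors in edgeR left 0 cytosolic genes at 35 dpf. Library size alone gave 0 cytosolic and 4 mitochondrial genes at 35 dpf, 6 and 0 at 45 dpf with a cytosolic median of 0.69, and 5 cytosolic genes and 9 called genes at 60 dpf. It also gave 2718 genes, 0 cytosolic and 0 mitochondrial over the 7 groups, 4 cytosolic and 0 mitochondrial over the control ages, 0 for the 45 minus 35 dpf difference, 0 genes for 60 minus 35 dpf, and 1 higher and 0 lower cytosolic genes for 60 minus 45 dpf.

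Libraries of the same number did not deviate together (r between -0.382 and 0.376 over 3 pairs at each age), so the replicate number was not taken as a pairing. The replicate block gave 0 cytosolic and 1 mitochondrial gene at 35 dpf, 9 and 0 at 45 dpf, 0 and 2 at 60 dpf, 6 and 0 over the 7 groups, and 0 genes for 60 minus 35 dpf. A fit of all 21 libraries gave 1 gene and 3 cytosolic genes at 35 dpf and 3163 genes at 60 dpf.

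Chosen after seeing the data, leaving out T35D-2 and T35D-3 gave 0 cytosolic and 0 mitochondrial genes and medians of 0.12 and -0.29. Without T45D-2 and T45D-3 there were 2202 genes, 0 mitochondrial ones and a mitochondrial median of -0.071. Without T60D-2 and T60D-3 there were 518 genes, 1 cytosolic and 0 mitochondrial, and medians of 0.10 and -0.078. The mitochondrial median thus changed sign at each age without its pair. In these fits the median of all genes was -0.045, -0.078 and -0.018 at 35, 45 and 60 dpf. The pairs were not alike, as T45D-3 was not rich in oocyte markers. Without T45D-2 alone the mitochondrial median at 45 dpf stayed positive, at 0.18. The mitochondrial median of the 45 minus 35 dpf difference was 0.146 without T35D-3, against -0.28 with all libraries.

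On log2(FPKM + 0.5) the difference of the class means was 3.01 in C25D, 2.74 in C35D, 2.69 in C45D and 2.87 in C60D. On log2 CPM it was 3.40, 3.13, 3.10 and 3.30 in these groups, and without gars1 and kars1 3.23, 2.96, 2.90 and 3.10.

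Leaving out 1 library at a time, genes past the adjusted threshold ranged from 0 to 6642 at 35 dpf, 0 to 1667 at 45 dpf, 0 to 6293 at 60 dpf and 1074 to 12217 over the 7 groups. Cytosolic genes higher by the unadjusted p ranged from 0 to 3, 8 to 19 and 0 to 6 at the 3 ages, mitochondrial ones from 0 to 12, 0 to 9 and 1 to 11, and the mitochondrial median at 45 dpf from 0.18 to 1.26. Called cytosolic and mitochondrial genes ranged from 0 to 17 and 0 to 13 over the 7 groups, and from 6 to 12 and 0 to 3 over the control ages. For 45 minus 35 dpf, higher cytosolic genes ranged from 0 to 14 and lower mitochondrial ones from 0 to 1. For 60 minus 35 dpf, genes ranged from 0 to 407 and higher cytosolic ones from 0 to 2. For 60 minus 45 dpf, genes ranged from 0 to 785, cytosolic ones from 1 to 13 lower and 0 to 1 higher, and higher mitochondrial ones from 0 to 2.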
